A study of Homo sapiens with 16 samples.

Results

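The human embryonic stem cell line H9 was followed through neural differentiation, and the change described here is the one from day 12 (D12) to day 30 (D30) in control cells. It rests on 4 libraries of the 16 in the series, namely the replicates 1 and 2 of D12 and of D30 in cells that received the solvent DMSO, chosen by the stage and treatment in the library titles. The series covers D0, D12, D30 and D70 of differentiation, each with 2 control libraries and 2 libraries of cells kept in 40 µM Thiamet-G (TMG), an inhibitor of the enzyme that removes O-GlcNAc from proteins. All groups after D0 had the same protocol of dual SMAD inhibition. It used the BMP receptor inhibitor LDN193189 and the TGF-beta receptor inhibitor SB431542 in knockout serum replacement and N2 medium up to D12. N2 and B27 medium without these inhibitors followed. Cells of D0 were undifferentiated, and H9 cells were grown in mTeSR1 medium before induction. For 8 of the 16 libraries a separate treatment tag contradicts the title, and replicate 2 of both control groups used here carries the tag TMG. The replicates are described as biological, all from this single cell line, so p-values measure the spread between cultures of H9.

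Dual SMAD inhibition turns pluripotent cells into neuroepithelium, the dividing progenitor sheet from which the neural tube forms. Progenitors of this kind later become radial glia, which divide more slowly, span the wall of the cortex, and give rise first to neurons and later to glia. LIN28A, an RNA-binding protein that blocks maturation of the let-7 microRNAs, marks the early state, FEZF2 is a transcription factor of forebrain progenitors and deep-layer neurons, and IFT20 is a subunit of the intraflagellar transport complex that builds the primary cilium.

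The deposited values were estimated read counts for each Ensembl gene, and the 4 libraries held between 10843196 and 19836878 counts. Replicate 1 of D30 was the shallowest of them. The common biological coefficient of variation was 0.236 between the D12 libraries and 0.221 between the D30 libraries when each stage was taken alone, and 0.379 over the whole series. Levels are given as CPM, counts scaled to 1e+06 per library on TMM library sizes, and changes as log2 fold changes of D30 over D12 with their standard errors (SE). A gene is said to have risen or fallen when its adjusted p was under 0.05 in the quasi-likelihood test of edgeR, fitted to all 16 libraries. The RNA came from whole cultures, so fewer cells of a type and less RNA per cell cannot be told apart.

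Of 24249 genes tested, 874 changed between D12 and D30, which is 3.6% of the genes tested. On D30, 464 genes were higher (1.91%) and 410 were lower (1.69%). The median log2 fold change was 1.46 among the genes that rose and -1.65 among those that fell, and 696 of the 874 changed at least 2-fold (2.87% of the genes tested). In all 874, both libraries of a stage lay on the same side of both libraries of the other stage, as they did for 59.4% of all genes tested (28.0% higher and 31.4% lower on D30). A fit of the 4 control libraries alone called 3379 genes, or 15.6% of the 21653 it tested (8.89% higher and 6.72% lower). That fit called in the same direction 449 of the 464 genes that rose and 382 of the 410 that fell. An unadjusted p below 0.05 was found for 20.4% of the genes tested, and DESeq2 on the 16 libraries called 10.3%. These are the shares to set beside the counts of these kinds given for gene lists. For list members that rose or fell, the shares are 1.91% and 1.69%. For those called higher or lower in the fit of 4 control libraries, they are 8.89% and 6.72%. Leaving out 1 library left 0 to 227 calls in the fit of 16 libraries, 5 and 0 without replicates 1 and 2 of D12 and 0 and 227 without replicates 1 and 2 of D30. With groups taken from the treatment tag in place of the title, 20 of the 76 called genes named in the text lost their call. They were AIF1, C6orf141, DNMT3B, DUSP6, GINS4, ICAM5, IFT20, MCM4, MCM7, MIR130AHG, MIR17HG, MIR924HG, MKI67, NHLH1, PCLO, POU4F1, QTRT1P1, SREBF2, TERT and TNC, and each kept its direction.

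**Figure D1:**
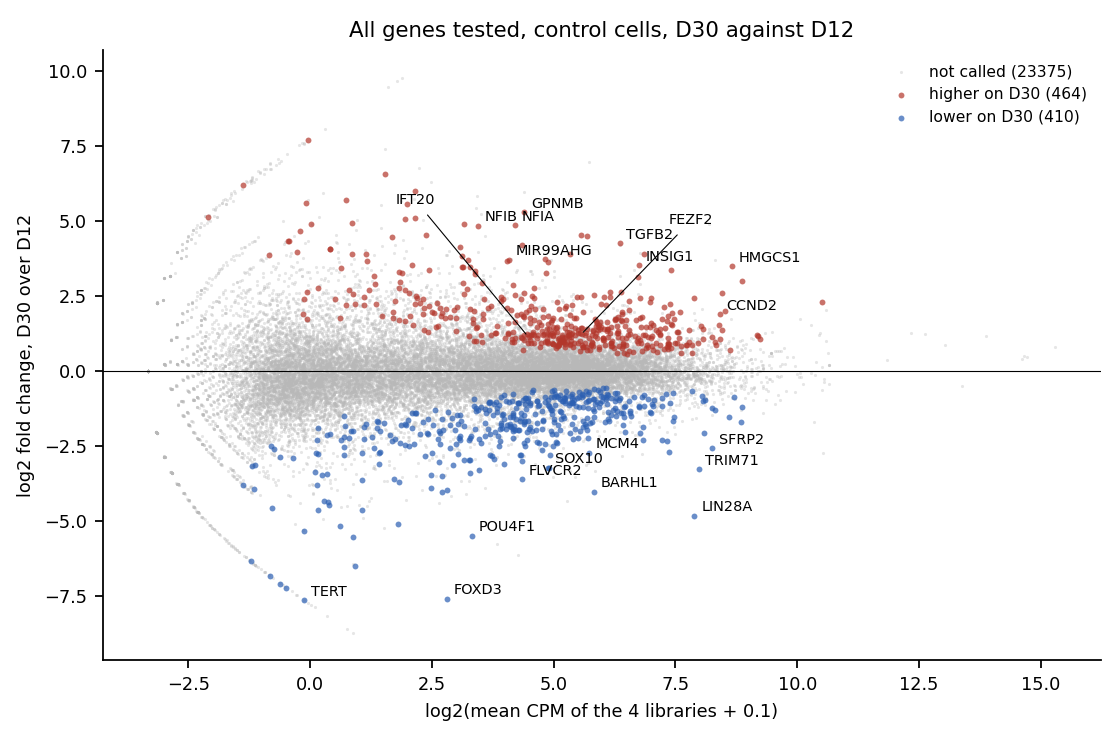
Log2 fold change of D30 over D12 against the log2 of the mean CPM of the 4 control libraries plus 0.1, with each point 1 of the 24249 genes tested. The 464 genes higher on D30 are red, the 410 lower genes are blue and the genes that did not pass are grey, and LIN28A lies far below the other highly expressed genes at a log2 fold change of -4.81.

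LIN28A (ENSG00000131914, chromosome 1 from 26737308 to 26756219 on GRCh37) had 419 and 497 CPM in the D12 libraries and 20.6 and 12.2 CPM in the D30 libraries. The stages were far apart, with a log2 fold change of -4.81 (SE 0.59, adjusted p = 0.0068 by edgeR), a 28.0-fold fall. IFT20 (ENSG00000109083, chromosome 17 from 26655351 to 26662515) had 14.7 and 13.4 CPM on D12 and 31.2 and 30.1 CPM on D30. Its rise was small and its replicates were close, with a log2 fold change of 1.12 (SE 0.21, adjusted p = 0.0208 by edgeR), which became 0.69 (adjusted p = 0.19) with groups from the treatment tag. The annotation places TMEM97 on the opposite strand over part of IFT20, and its log2 fold change of -0.60 did not pass (adjusted p = 0.425 by edgeR).

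FEZF2 (ENSG00000153266, chromosome 3 from 62355356 to 62359999) had 39.9 and 16.9 CPM on D12 against 45.8 and 83.8 CPM on D30. Both D30 libraries were above both D12 libraries, but the replicates of each stage differed about as much as the stages did, and the log2 fold change of 1.19 (SE 1.25) did not pass (adjusted p = 0.635 by edgeR). Of the 3 genes named as markers of this interval, LIN28A fell, IFT20 rose and FEZF2 did not pass.

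The fall of LIN28A was shared by other members of its pathway. LIN28 proteins and let-7 repress each other, and let-7 silences a set of fetal growth genes. Of 16 members of the LIN28 and let-7 pathway list, 6 fell and 0 rose, and both counts include LIN28A itself where it applies. The median log2 fold change, LIN28A included, was -0.97 against -0.039 over all genes tested, of which 1.69% fell and 1.91% rose. TRIM71, an RNA-binding ubiquitin ligase and a classic let-7 target, had 490 and 423 CPM on D12 and 62.6 and 32.3 CPM on D30, a log2 fold change of -3.27 (SE 0.57, adjusted p = 0.0165 by edgeR). HMGA1, a chromatin protein of proliferating cells, fell from 410 and 469 CPM to 94.6 and 116 CPM. NR6A1, the germ cell nuclear factor, fell from 293 and 280 CPM to 46.6 and 41.2 CPM, a log2 fold change of -2.71 (SE 0.56). These 4 genes had no overlap between stages, and each had its highest control level on D0.

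A smaller fall in the same list was that of ARID3B (log2 fold change -1.18, adjusted p = 0.0295 by edgeR), together with that of IGF2BP3, an RNA-binding protein of fetal tissue (log2 fold change -0.78, adjusted p = 0.049). LIN28B, the paralog of LIN28A, had 178 and 179 CPM on D12 and 81.7 and 56.6 CPM on D30 and did not pass (adjusted p = 0.256 by edgeR). IGF2BP1 (log2 fold change -1.09, adjusted p = 0.126) and MYCN (-1.59, adjusted p = 0.102) did not pass either. HMGA2, another known let-7 target, had 95.2 and 78.9 CPM on D12 and 78.9 and 105 CPM on D30, so that its stages overlapped.

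Mature microRNAs were not measured in these libraries, but the long RNAs that host their genes were. Among 52 genes tested whose names mark them as microRNA host genes, a set chosen after values had been seen, 2 rose and 3 fell, beside 1.91% and 1.69% of all genes. The 2 that rose were MIR99AHG and MIR100HG, and RefSeq places a cluster of a miR-99 family member, a let-7 and a miR-125 in each. The mature forms are shown because the clusters carry the same 3 seeds, given in capitals as bases 2 to 8, in the 5′ to 3′ direction from RefSeq on GRCh38.p14.
hsa-let-7c-5p, in MIR99AHG (chromosome 21, plus strand): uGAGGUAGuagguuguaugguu
hsa-miR-99a-5p, in MIR99AHG: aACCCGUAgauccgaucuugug
hsa-miR-125b-5p, in both clusters: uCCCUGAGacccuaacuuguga
hsa-let-7a-5p, in MIR100HG (chromosome 11, minus strand): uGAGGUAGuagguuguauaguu
hsa-miR-100-5p, in MIR100HG: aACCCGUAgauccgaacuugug
The seed GAGGUAG defines the let-7 family, whose maturation LIN28A blocks.

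MIR99AHG (ENSG00000215386, chromosome 21 from 17300616 to 18018683 on GRCh37) had 2.06 and 2.68 CPM on D12 and 35.6 and 26.7 CPM on D30, a log2 fold change of 3.71 (SE 0.46, adjusted p = 0.0068 by edgeR). MIR100HG (ENSG00000255248, chromosome 11 from 121899033 to 122427429) had 18.9 and 20.9 CPM on D12 and 102 and 120 CPM on D30, a log2 fold change of 2.48 (SE 0.45, adjusted p = 0.0191). Both host genes were therefore higher on D30 while LIN28A was lower, and in neither did the stages overlap. MIRLET7BHG, the host of another let-7 cluster, was detected with 2 counts on D12 and 29 counts on D30 (ratio 18.3, exact 95% counting interval 4.63 to 158), and its adjusted p of 0.0775 by edgeR did not pass. MIR17HG, the host of the miR-17 cluster that is known to promote proliferation, fell from 23.6 and 21.0 CPM to 9.68 and 6.47 CPM (log2 fold change -1.47, adjusted p = 0.0462 by edgeR). MIR130AHG and MIR924HG also fell, and all 3 host genes that fell lost their call with groups from the treatment tag (adjusted p = 0.149 for MIR17HG, 0.097 for MIR130AHG and 0.428 for MIR924HG by edgeR). MIR130AHG overlaps YPEL4 on the opposite strand, which fell as well (log2 fold change -1.31, adjusted p = 0.04 by edgeR), so that their reads may not be separable.

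OCT4 (POU5F1) and NANOG, the core pluripotency factors, were already below 1 CPM in both D12 libraries, after means of 859 and 90.3 CPM on D0. Of 15 genes tested in the pluripotency list, 3 fell and 0 rose, and of the 12 that did not pass 4 had a log2 fold change above 0, where 1.69% of all genes fell. DNMT3B, the de novo DNA methyltransferase of early embryos, had 35.2 and 39.2 CPM on D12 and 8.27 and 10.4 CPM on D30 (log2 fold change -1.99, SE 0.38, adjusted p = 0.021 by edgeR). DPPA4, a chromatin factor of pluripotent cells, had 83.1 and 70.3 CPM on D12 and 29.4 and 15.5 CPM on D30 (log2 fold change -1.78, adjusted p = 0.0488). TERT, the catalytic subunit of telomerase, had 64 counts over the D12 libraries and 0 counts over the D30 libraries (adjusted p = 0.0068 by edgeR). A count of 0 allows up to 3 counts, or 0.0981 CPM over the D30 libraries, so TERT was at least 16.9-fold lower on D30. With groups from the treatment tag the call of TERT was lost (log2 fold change -1.87, adjusted p = 0.326 by edgeR), so its bound holds only for groups by title. The call of DNMT3B was lost as well (log2 fold change -1.07, adjusted p = 0.18 by edgeR). Among 16 polycomb and DNA methylation genes, DNMT3B and the polycomb subunit CBX2 (log2 fold change -1.40, adjusted p = 0.0202) fell, and the methyltransferase EZH2 did not pass, at 60.3 and 58.0 CPM on D12 and 35.6 and 40.6 CPM on D30 (adjusted p = 0.0997).

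Of the 6 MCM genes, 5 fell in the same interval. The MCM proteins form the helicase that licenses and opens replication origins. Of 29 cell cycle genes, 7 fell and 1 rose, with a median log2 fold change of -1.38, and in 28 of the 29 the stages did not overlap. Over all genes tested 1.69% fell, 1.91% rose and 59.4% did not overlap. MCM4 had 84.2 and 99.6 CPM on D12 and 14.8 and 13.1 CPM on D30 (log2 fold change -2.72, SE 0.47, adjusted p = 0.0163 by edgeR). MCM5 had 71.0 and 68.1 CPM on D12 and 14.5 and 14.4 CPM on D30 (log2 fold change -2.27, SE 0.37, adjusted p = 0.0126). MCM2, MCM3 and MCM7 fell by 2.22, 1.65 and 1.52 on the log2 scale, with adjusted p-values of 0.0283, 0.0202 and 0.0183. MCM6 was the exception in the complex, with a log2 fold change of -0.70 that did not pass (adjusted p = 0.17 by edgeR). Beyond the list, ORC1, the largest subunit of the origin recognition complex, and GINS4, a subunit of the replicative helicase, were among the 15 largest falls, at log2 fold changes of -3.12 and -3.08.

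Of the other cell cycle genes, MKI67 and AURKB fell. MKI67, the proliferation antigen Ki-67, had 286 and 245 CPM on D12 and 50.2 and 56.6 CPM on D30 (log2 fold change -2.31, SE 0.50, adjusted p = 0.0332 by edgeR), and the mitotic kinase AURKB fell by 2.02 on the log2 scale (adjusted p = 0.0405). TOP2A (-1.12, adjusted p = 0.196), CCNB1 (-1.28, adjusted p = 0.213) and PLK1 (-1.38, adjusted p = 0.145) did not pass by edgeR on the 16 libraries. The only riser of the list was CCND2, the D-type cyclin of cortical progenitors, with 176 and 111 CPM on D12 against 552 and 517 CPM on D30 (log2 fold change 1.90, SE 0.25, adjusted p = 0.00713). In the fit of the 4 control libraries, 20 of the 29 genes fell and 4 rose, against 6.72% and 8.89% of all genes it tested.

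Of all the lists, cholesterol synthesis had the most members that rose. Cells make cholesterol from acetyl-CoA through the mevalonate pathway, whose genes are switched on by the transcription factor SREBP-2, the product of SREBF2, when sterols are scarce. Of 23 members of the list, 15 rose and 0 fell, with a median log2 fold change of 1.96, where 1.91% of all genes tested rose. The log2 fold change was above 0 in 22 of the 23. The stages did not overlap in 20, against 59.4% of all genes tested (28.0% higher on D30). INSIG1, the sterol-sensing brake on SREBP processing, had 14.4 and 19.8 CPM on D12 and 238 and 160 CPM on D30, a log2 fold change of 3.54 (SE 0.45, adjusted p = 0.0068 by edgeR). HMGCS1, which makes HMG-CoA, had 66.5 and 64.3 CPM on D12 and 946 and 534 CPM on D30, a log2 fold change of 3.50 (SE 0.45). Replicate 1 of D30 was the higher library for both genes, and the gap between the stages was larger than that between the replicates.

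The rise ran through most steps of the pathway. The isoprenoid enzymes IDI1 and MVD rose by log2 fold changes of 3.15 and 1.96, and FDPS by 1.27. FDFT1, which makes squalene, had 58.9 and 58.0 CPM on D12 and 313 and 243 CPM on D30 (log2 fold change 2.25, SE 0.24, adjusted p = 0.00609). Of the later enzymes, SQLE rose by 2.43, CYP51A1 by 2.34, MSMO1 by 3.37, HSD17B7 by 1.80, SC5D by 1.74 and DHCR7 by 2.55, all on the log2 scale. SREBF2 itself rose from 207 and 233 CPM to 450 and 469 CPM (log2 fold change 1.07, adjusted p = 0.0209). Members that did not pass included LSS (log2 fold change 0.57, adjusted p = 0.304 by edgeR), PMVK (0.01), EBP (0.20) and TM7SF2 (-0.10). The rise stood against a low D12 level, as the list summed to 840 and 1072 CPM in the D12 libraries, 5022 and 3328 CPM on D30, 4030 and 2499 CPM on D0, and 1701 and 1266 CPM on D70. The medium changed with the stage, from knockout serum replacement and N2 up to D12 to N2 and B27 afterwards. Stage and medium therefore cannot be told apart for these genes. ABCG1, which exports cholesterol and is no member of the list, was among the 15 largest rises, from 0.934 and 0.876 CPM to 12.03 and 19.7 CPM (log2 fold change 4.12, SE 0.71).

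**Figure D2:**
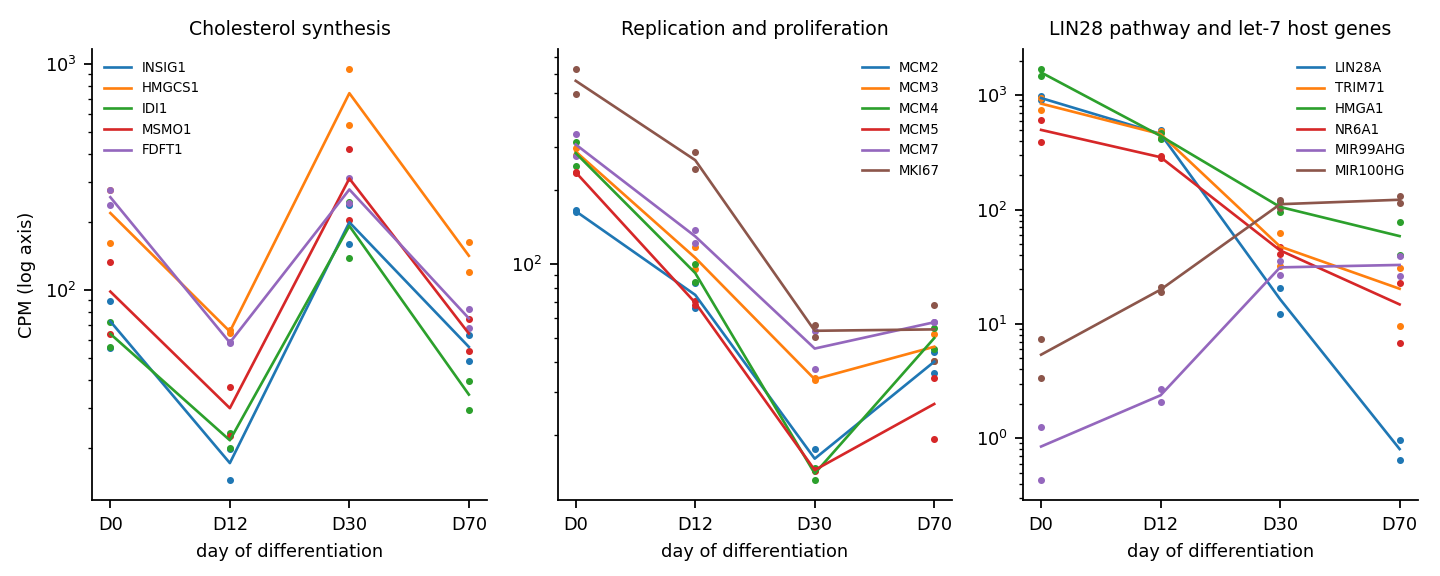
Levels in control cells at the 4 stages, as CPM on a log axis, for 5 genes of cholesterol synthesis (left), 6 genes of replication and proliferation (middle) and 4 genes of the LIN28 pathway with 2 let-7 host genes (right). Points are libraries, lines join the means of 2 libraries, and stages are evenly spaced. Cholesterol genes are at their lowest on D12, the MCM genes at their lowest on D30, and MIR99AHG and MIR100HG rise between D12 and D30 while LIN28A falls.

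Promoters of the genes that moved together were searched for short motifs, as a description. RefSeq promoter windows on GRCh38.p14 were taken at the gene's 5′ end, as the 250 bases before the transcription start, and 12448 genes tested had one. CCAAT, the site of NF-Y, a known partner of SREBP, was found on either strand in 34.8% of these windows, and in 8 of the 10 windows of cholesterol genes that rose (80.0%, Wilson 95% interval 49.0 to 94.3). It was in 38.6% of the windows of all genes that rose and 42.6% of those that fell. Of the 4 windows of cell cycle genes that fell, 3 held it as well (75.0%, Wilson 95% interval 30.1 to 95.4). TTTCCCGC, the core of an E2F site known from replication genes, was in 1.99% of all windows, 2.27% for genes that rose and 3.72% for genes that fell (Wilson 95% interval 1.97 to 6.92). Among the 4 cell cycle genes that fell and had a window, MCM3 and MCM7 held it. TTTGGCGC, another form of the E2F site, was in 0.771% of all windows, 0.649% of those of genes that rose and 3.31% of those of genes that fell, and in none of the 4. The sterol element letters TCACNCCAC were in 0.868% of all windows and, of the 10 cholesterol windows, in that of SREBF2. These motifs were chosen after values had been seen. Promoters with a match are shown for both groups. Capitals mark CCAAT in INSIG1 and HMGCS1, and TTTCCCGC in MCM3 and MCM7, where a match on the other strand reads ATTGG or GCGGGAAA. MCM3 and MCM7 also hold CCAAT, which is left in lower case there.
INSIG1, plus strand, chr7:155297628-155297877: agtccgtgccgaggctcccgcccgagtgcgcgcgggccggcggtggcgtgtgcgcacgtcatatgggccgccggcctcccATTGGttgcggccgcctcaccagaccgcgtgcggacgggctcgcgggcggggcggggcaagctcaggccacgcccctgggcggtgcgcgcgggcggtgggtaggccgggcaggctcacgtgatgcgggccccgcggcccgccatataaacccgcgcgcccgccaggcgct
HMGCS1, minus strand, chr5:43313413-43313662: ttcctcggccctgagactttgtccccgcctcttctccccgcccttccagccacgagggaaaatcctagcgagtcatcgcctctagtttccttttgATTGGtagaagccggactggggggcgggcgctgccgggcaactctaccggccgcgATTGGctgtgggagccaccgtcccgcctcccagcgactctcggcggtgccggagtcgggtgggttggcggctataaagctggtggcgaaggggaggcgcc
MCM3, minus strand, chr6:52284743-52284992: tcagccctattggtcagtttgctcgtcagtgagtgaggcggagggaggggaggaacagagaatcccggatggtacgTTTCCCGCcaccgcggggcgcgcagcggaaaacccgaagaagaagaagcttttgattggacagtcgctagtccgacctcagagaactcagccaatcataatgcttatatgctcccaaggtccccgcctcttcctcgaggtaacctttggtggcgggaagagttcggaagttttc
MCM7, minus strand, chr7:100101398-100101647: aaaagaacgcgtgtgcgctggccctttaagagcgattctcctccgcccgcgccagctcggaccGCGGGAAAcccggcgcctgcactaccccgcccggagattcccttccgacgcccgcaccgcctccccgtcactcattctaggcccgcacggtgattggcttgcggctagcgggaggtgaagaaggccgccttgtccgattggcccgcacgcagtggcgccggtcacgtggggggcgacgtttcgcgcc
The E-box letters CAGCTG, which neurogenic bHLH factors are known to bind, were in 13.4% of all windows, 11% of those of genes that rose and 12.4% of those of genes that fell, and CAGATG was in 8.84%, 7.14% and 7.85%.

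Among radial glia genes, 3 of 16 rose and 1 fell, beside 1.91% and 1.69% of all genes. The list summed to 1360 and 1316 CPM on D12 and 1077 and 1100 CPM on D30. Without GLI3 the other 15 summed to 635 and 628 CPM on D12 and 870 and 876 CPM on D30, and over all 16 the log2 fold change was above 0 in 10, with a median of 0.61. This median was 0.23 without replicate 1 of D30 and 1.00 without replicate 2, and in the fit of 4 control libraries it was 1.13 without replicate 1 of D12, 0.96 without replicate 2 of D12, 0.33 without replicate 1 of D30 and 1.16 without replicate 2 of D30. NFIA and NFIB encode nuclear factor I proteins, which are known to start gliogenesis in the developing central nervous system. NFIA (ENSG00000162599, chromosome 1 from 61330931 to 61928460) had 1.23 and 1.2 CPM on D12 and 14.6 and 56.6 CPM on D30, a log2 fold change of 4.87 (SE 0.92, adjusted p = 0.021 by edgeR). NFIB (ENSG00000147862, chromosome 9 from 14081842 to 14398982) had 0.737 and 0.712 CPM on D12 and 13.4 and 28.4 CPM on D30, a log2 fold change of 4.84 (SE 0.78, adjusted p = 0.0127). Both were near 1 CPM on D12, below their D0 means of 9.58 CPM for NFIA and 17.8 CPM for NFIB. On D70 their means were 199 and 164 CPM. TNC, the matrix protein tenascin-C, had 20.5 and 25.7 CPM on D12 and 108 and 178 CPM on D30 (log2 fold change 2.63, adjusted p = 0.0425). GLI3, the hedgehog pathway repressor of dorsal progenitors, fell from 725 and 688 CPM to 208 and 225 CPM (log2 fold change -1.71, SE 0.35, adjusted p = 0.0286). VIM, the intermediate filament of progenitors and mesenchyme and a member of the neuroepithelial list, had 590 and 690 CPM on D12 and 1701 and 2013 CPM on D30 and did not pass (adjusted p = 0.0679 by edgeR). The median of the neuroepithelial list was -0.20 on the log2 scale, and without VIM the list summed to 3148 and 3506 CPM on D12 and 2738 and 2976 CPM on D30. Among 8 astrocyte markers, GFAP was at most 1.37 CPM in each of the 4 libraries, ALDOC had 6.04 and 10.1 CPM on D12 and 26.2 and 29.3 CPM on D30 (adjusted p = 0.119 by edgeR), and GJA1 had 359 and 733 CPM against 411 and 367 CPM.

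Of 25 pan-neuronal genes, 1 rose and 0 fell, with a median log2 fold change of -0.34, and 6 had an unadjusted p under 0.05, 5 of them lower on D30. These counts lie near the shares over all genes, 3.6% called and 20.4% with such a p. The fit of the 4 control libraries called 9 of the 25, 3 higher and 6 lower. That fit called 15.6% of all genes it tested, 8.89% higher and 6.72% lower. SCG2, a granin of dense-core vesicles, rose from 1.18 and 1.48 CPM to 5.83 and 29.0 CPM (log2 fold change 3.71, SE 0.88, adjusted p = 0.0461 by edgeR). DCX, the microtubule protein of migrating neurons, had 42.2 and 36.8 CPM on D12 and 93.3 and 209 CPM on D30, apart in both libraries but not past the threshold (adjusted p = 0.325). TUBB3, the neuronal tubulin, had 77.5 and 99.4 CPM on D12 and 93.8 and 120 CPM on D30 (adjusted p = 0.782), and STMN2 and ELAVL3 overlapped between the stages as well. MAP2 had 272 and 576 CPM on D12 and 263 and 260 CPM on D30 (adjusted p = 0.554).

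Of 28 synapse genes, 1 rose, the active zone gene PCLO (log2 fold change 0.94, SE 0.18, adjusted p = 0.0234 by edgeR). In that list 8 genes had an unadjusted p below 0.05, 7 of them higher on D30, and DESeq2 called 6, while 3.6% of all genes were called by edgeR and 10.3% by DESeq2. Of 16 proneural genes, 1 fell, the bHLH factor NHLH1 (log2 fold change -2.95, adjusted p = 0.0223 by edgeR), beside 1.69% of all genes. NEUROG2, NEUROD1 and EOMES stayed below 10 CPM in each of the 4 libraries. The median of the proneural list was -0.87 on the log2 scale, with 5 of the 16 above 0. It summed to 83.6 and 65.9 CPM on D12 and 20.3 and 40.2 CPM on D30. In the fit of the 4 control libraries 5 of the 16 were called, all lower, against 6.72% of all genes it tested. None of 28 cortical and forebrain factors and none of 19 glutamate and GABA transmission genes passed by edgeR, 6 and 2 having an unadjusted p below 0.05, and by DESeq2 on the 16 libraries 4 and 0 were called. The fit of the 4 control libraries called 13 of the 28 (9 higher and 4 lower) and 4 of the 19, against 15.6% of all genes. TBR1, a factor of early cortical neurons, had 0.246 and 0.547 CPM on D12 and 6.01 and 2.36 CPM on D30 (adjusted p = 0.299), and BCL11B had 1.47 and 1.37 CPM against 4.23 and 10.4 CPM (adjusted p = 0.158). Neuroepithelial genes, 17 in number, had 0 calls by edgeR, where 2 had an unadjusted p below 0.05, 1 call by DESeq2 and 5 in the fit of the 4 control libraries. In that list SOX2 had 109 and 90.9 CPM on D12 and 124 and 157 CPM on D30 (adjusted p = 0.578). The progenitor markers PAX6 and NES did not pass either (adjusted p = 0.839 and 0.384).

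Among called genes with a mean of at least 10 CPM on D30, the 15 largest rises by fold change were, in falling order, GPNMB, DKK2, NFIA, NFIB, LOX, IGFBP7, TGFB2, ELN, ABCG1, HTRA1, ICAM5, ARSJ, EEF1A2, SCG2 and MIR99AHG. ELN, which encodes elastin, had 2.31 and 1.92 CPM on D12 and 38.7 and 38.6 CPM on D30 (log2 fold change 4.19, SE 0.45, adjusted p = 0.00609 by edgeR). LOX, the lysyl oxidase that cross-links elastin and collagen, had 4.03 and 3.78 CPM on D12 and 79.4 and 100.7 CPM on D30 (log2 fold change 4.52, SE 0.72, adjusted p = 0.0126). TGFB2, a TGF-beta ligand, had 9.19 and 7.06 CPM on D12 and 173 and 138 CPM on D30 (log2 fold change 4.26, adjusted p = 0.0174). The secreted protease HTRA1 had 17.4 and 11.2 CPM on D12 and 233 and 198 CPM on D30 (log2 fold change 3.91, adjusted p = 0.00799). GPNMB, a glycoprotein of pigment cells and macrophages, had 0.344 and 1.75 CPM on D12 and 49.2 and 32.5 CPM on D30 (log2 fold change 5.29, SE 1.18, adjusted p = 0.0377). Several overlap a gene on the opposite strand, LOX with SRFBP1 and IGFBP7 with POLR2B, whose own log2 fold changes of 0.037 and 0.12 did not pass. The same holds for MCM7 with AP4M1 (0.047) and SOX10 with POLR2F (-0.48).

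Markers of mesenchyme, the connective tissue cell type, moved with these rises. The 16 of them summed to 1304 and 1442 CPM in the D12 libraries and 4843 and 6089 CPM in the D30 libraries, and 15 of the 16 had a log2 fold change above 0, with a median of 2.05, which became 0.95 without replicate 2 of D30 and 1.43 in the fit of 4 control libraries without it. None passed by edgeR on the 16 libraries, where the unadjusted p was below 0.05 for 4. DESeq2 called 4, and the fit of the 4 control libraries called 6, all higher, against 8.89% of all genes it tested. COL1A1 had 601 and 379 CPM on D12 and 1304 and 1993 CPM on D30 (adjusted p = 0.414 by edgeR). COL3A1 had 8.94 and 29.2 CPM against 178 and 947 CPM (adjusted p = 0.149), and POSTN had 0.541 and 0.766 CPM against 2.63 and 79.4 CPM (adjusted p = 0.206), so that replicate 2 of D30 was well above replicate 1 for both. ELN, LOX and HTRA1 did not show this gap between the D30 replicates, and neither did the mesenchyme marker LUM (31.3 and 22.1 CPM). Other genes among the 15 largest rises were higher in replicate 2 of D30. Examples were DKK2 (10.3 and 23.8 CPM), NFIA (14.6 and 56.6 CPM), NFIB (13.4 and 28.4 CPM) and SCG2 (5.83 and 29.0 CPM). The part of mesenchymal cells in these rises was not tested.

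**Figure D3:**
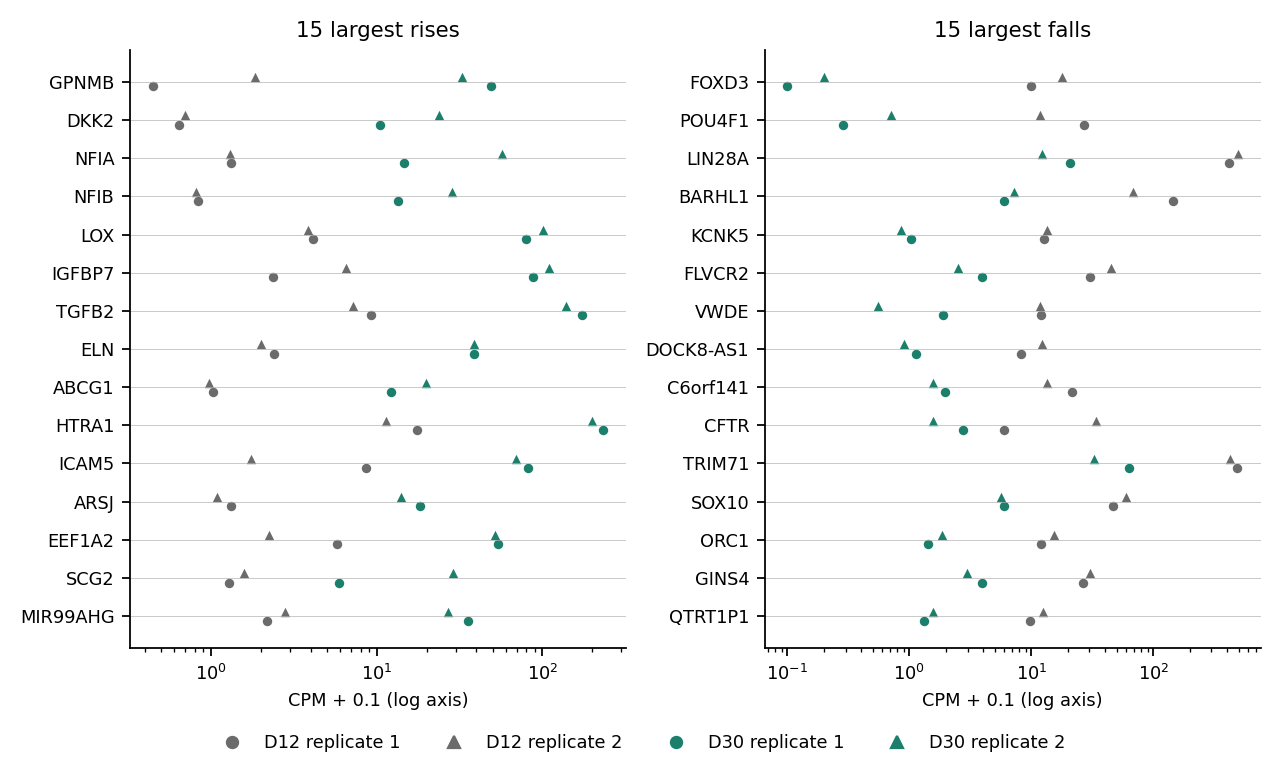
Levels of the 15 genes with the largest rises (left) and the 15 with the largest falls (right) in each control library, as CPM plus 0.1 on a log axis. Circles are replicate 1, triangles are replicate 2, grey is D12 and green is D30, and in all 30 genes the stages are apart.

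Among called genes with a mean of at least 10 CPM on D12, the 15 largest falls by fold change were FOXD3, POU4F1, LIN28A, BARHL1, KCNK5, FLVCR2, VWDE, DOCK8-AS1, C6orf141, CFTR, TRIM71, SOX10, ORC1, GINS4 and QTRT1P1. FOXD3, a factor of pluripotent cells and of neural crest, the migratory population at the border of the neural tube, had 524 counts over the D12 libraries (9.83 and 17.7 CPM) and 2 over the D30 libraries, a ratio of 207 with an exact 95% counting interval of 57.1 to 1720 (adjusted p = 0.0198 by edgeR), and did not pass without the filter on low counts. FOXD3-AS1 on the opposite strand fell as well (log2 fold change -5.14, adjusted p = 0.0328), so that their reads may not be separable. SOX10, a factor of neural crest and oligodendrocytes, had 47.1 and 59.2 CPM on D12 and 5.92 and 5.52 CPM on D30 (log2 fold change -3.22, SE 0.66, adjusted p = 0.0282). POU4F1, the sensory neuron factor BRN3A, fell from 27.0 and 11.6 CPM to 0.188 and 0.602 CPM (log2 fold change -5.47, SE 1.28, adjusted p = 0.0438), but with groups from the treatment tag it did not pass (log2 fold change -2.59, adjusted p = 0.354). BARHL1, a homeobox factor of the dorsal brain, fell from 144 and 68.1 CPM to 5.92 and 7.13 CPM (log2 fold change -4.02, SE 0.74, adjusted p = 0.0196).

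FLVCR2, a membrane transporter, had an adjusted p as low as that of any gene tested. It had 30.1 and 45.2 CPM on D12 and 3.85 and 2.41 CPM on D30 (log2 fold change -3.60, SE 0.34, adjusted p = 0.00351 by edgeR). The potassium channel gene KCNK5 and the chloride channel gene CFTR fell by 3.95 and 3.30 on the log2 scale. CFTR differed between the D12 replicates, at 5.90 and 34.0 CPM. DOCK8-AS1 lies opposite DOCK8, whose log2 fold change of -1.75 did not pass (adjusted p = 0.0614), and QTRT1P1 is a processed pseudogene, so reads of both may be shared with a related gene.

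Of 12 neural crest markers, 1 fell, FOXD3, and 6 had an unadjusted p under 0.05, all lower on D30, with a median log2 fold change of -1.55. Without replicate 2 of D30 the median was -2.17, and -2.15 in the fit of 4 control libraries. TFAP2B had 32.3 and 43.4 CPM on D12 and 0 and 0.903 CPM on D30 but did not pass (adjusted p = 0.17 by edgeR), and SNAI2 did not pass either (adjusted p = 0.669). The list summed to 376 and 516 CPM in the D12 libraries and 96.1 and 147 CPM in the D30 libraries. Of 18 roof plate and choroid plexus genes, 1 rose and 1 fell, and 9 had an unadjusted p below 0.05, 6 of them higher on D30. Over all genes tested, 1.91% rose, 1.69% fell and 20.4% had an unadjusted p below 0.05. GDF7, a BMP ligand of the roof plate, fell from 267 and 229 CPM to 53.5 and 46.9 CPM (log2 fold change -2.31, SE 0.48, adjusted p = 0.0286). The water channel gene AQP1 rose from 1.62 and 1.48 CPM to 9.40 and 7.03 CPM (log2 fold change 2.39, adjusted p = 0.037), and TTR, the transthyretin gene of choroid plexus, had 0.639 and 1.04 CPM on D12 and 36.5 and 173 CPM on D30 without passing (adjusted p = 0.196).

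**Figure D4:**
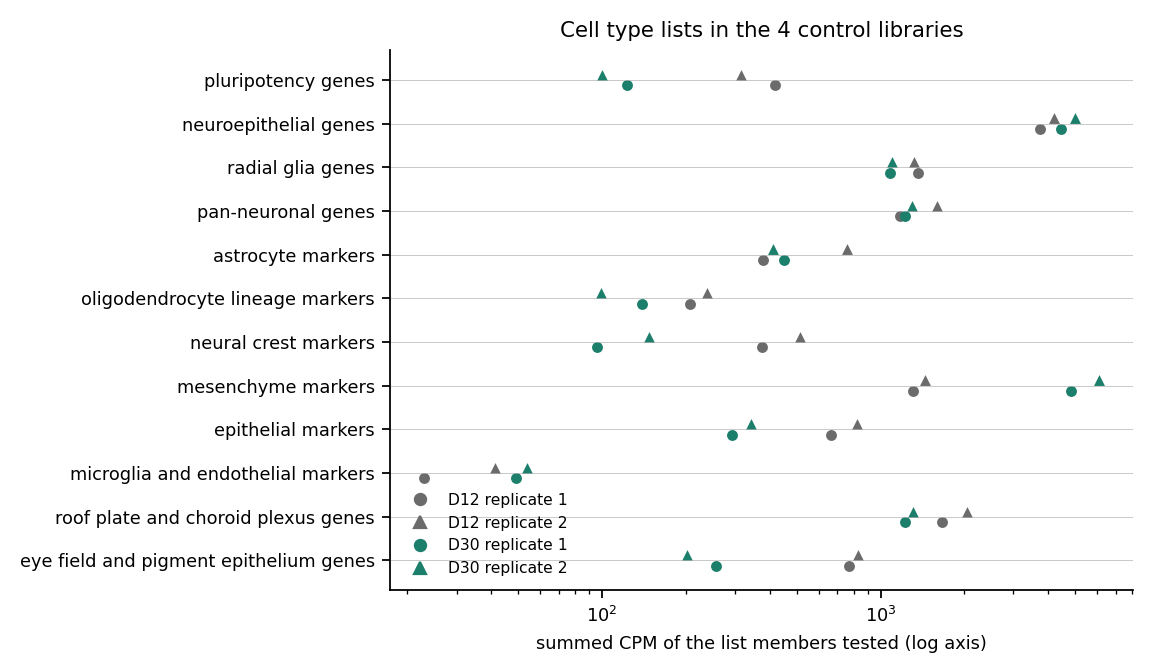
Summed CPM of the members tested of 12 cell type lists in each of the 4 control libraries, on a log axis. Circles are replicate 1, triangles are replicate 2, grey is D12 and green is D30. Pluripotency, radial glia, oligodendrocyte, neural crest, epithelial, roof plate and eye field lists have their D30 libraries below both D12 libraries, neuroepithelial, mesenchyme and microglia lists have them above, and the pan-neuronal and astrocyte sums overlap. Single genes set the side of the radial glia sum, which is higher on D30 without GLI3, and of the neuroepithelial sum, which is lower on D30 without VIM.

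The epithelial list summed to 662 and 822 CPM on D12 and 292 and 343 CPM on D30, with 0 of 12 called by edgeR, where 3 had an unadjusted p below 0.05, and 1 called by DESeq2. The fit of the 4 control libraries called 8 of the 12, all lower on D30, against 6.72% of all genes. Its member CDH1, the E-cadherin gene, had 18.3 and 32.1 CPM on D12 and 3.48 and 2.31 CPM on D30 (adjusted p = 0.288). Of 10 microglia and endothelial markers, 1 rose, AIF1, from 0.147 and 0.328 CPM to 6.95 and 9.89 CPM (log2 fold change 5.11, SE 0.82, adjusted p = 0.0126 by edgeR), while the leukocyte gene PTPRC had 0.564 and 4.12 CPM on D30 and CSF1R had 2.07 and 1.51 CPM. Of the oligodendrocyte lineage list, SOX10 fell and MBP was at most 3.28 CPM in these libraries.

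Of 26 WNT pathway genes, 2 rose and 1 fell, at a median log2 fold change of -0.55, while 1.91% of all genes rose and 1.69% fell. An unadjusted p below 0.05 was found for 12, of which 10 were lower and 2 higher on D30, against 20.4% of all genes in either direction. The list summed to 1523 and 1638 CPM on D12 and 818 and 837 CPM on D30. The ligand WNT5A rose from 22.5 and 21.5 CPM to 80.1 and 125 CPM (log2 fold change 2.22, SE 0.39, adjusted p = 0.0175 by edgeR), DKK3 rose by 1.96 on the log2 scale (adjusted p = 0.021), and the secreted antagonist SFRP2 fell from 535 and 514 CPM to 106 and 70.8 CPM (log2 fold change -2.57, SE 0.48, adjusted p = 0.0209). Of 20 BMP, TGF-beta and activin response genes, 1 rose and 0 fell. SKIL, a feedback repressor of SMAD proteins, rose from 54.4 and 42.5 CPM to 148 and 165 CPM (log2 fold change 1.69, SE 0.23, adjusted p = 0.00713 by edgeR). In that list 7 genes had an unadjusted p under 0.05, all of them higher on D30. Over all genes tested, 1.91% rose and 20.4% had such a p in either direction. The medium held inhibitors of BMP and TGF-beta receptors up to D12 and not afterwards, so stage and medium cannot be told apart. Of 22 FGF pathway genes, DUSP6, a feedback phosphatase of the ERK kinases, fell from 50.03 and 49.6 CPM to 16.4 and 23.4 CPM (log2 fold change -1.32, adjusted p = 0.0202).

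None of 22 Notch pathway genes passed by edgeR, where 5 had an unadjusted p below 0.05, and DESeq2 called 4, against 20.4% and 10.3% of all genes. The fit of the 4 control libraries called 7 of them, 5 lower and 2 higher. That fit called 15.6% of all genes it tested, 6.72% lower and 8.89% higher. DLL1, a Notch ligand, had 133 and 86.2 CPM on D12 and 54.9 and 50.4 CPM on D30 (adjusted p = 0.478), and the effector HES5 had 102 and 34.99 CPM against 30.9 and 11.9 CPM (adjusted p = 0.509). Of 20 intraflagellar transport genes, IFT20 was the only one called and the only one at an unadjusted p under 0.05, although 17 had a log2 fold change above 0, with a median of 0.39. Glycolysis and hypoxia genes (22 tested), splicing regulators (22), retinoid pathway genes (16) and subunits of chromatin remodelling complexes (12) had 0 calls by edgeR. In these lists 5, 5, 3 and 4 genes had an unadjusted p below 0.05, DESeq2 called 2, 3, 1 and 2, and the fit of the 4 control libraries called 4, 7, 4 and 1. Astrocyte markers (8 tested), ventral forebrain factors (8) and midbrain and hindbrain factors (13) likewise had 0 calls by edgeR, with unadjusted p-values below 0.05 for 1, 1 and 3 genes, 1, 0 and 1 calls by DESeq2, and 1, 3 and 3 in the fit of the 4 control libraries. Of 13 hedgehog pathway genes GLI3 fell, and 6 had an unadjusted p below 0.05, 5 of them lower on D30, while the list summed to 2154 and 2531 CPM on D12 and 904 and 1057 CPM on D30. Of 13 eye field and pigment epithelium genes SFRP2 fell. Both genes are also counted in lists given before.

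**Figure D5:**
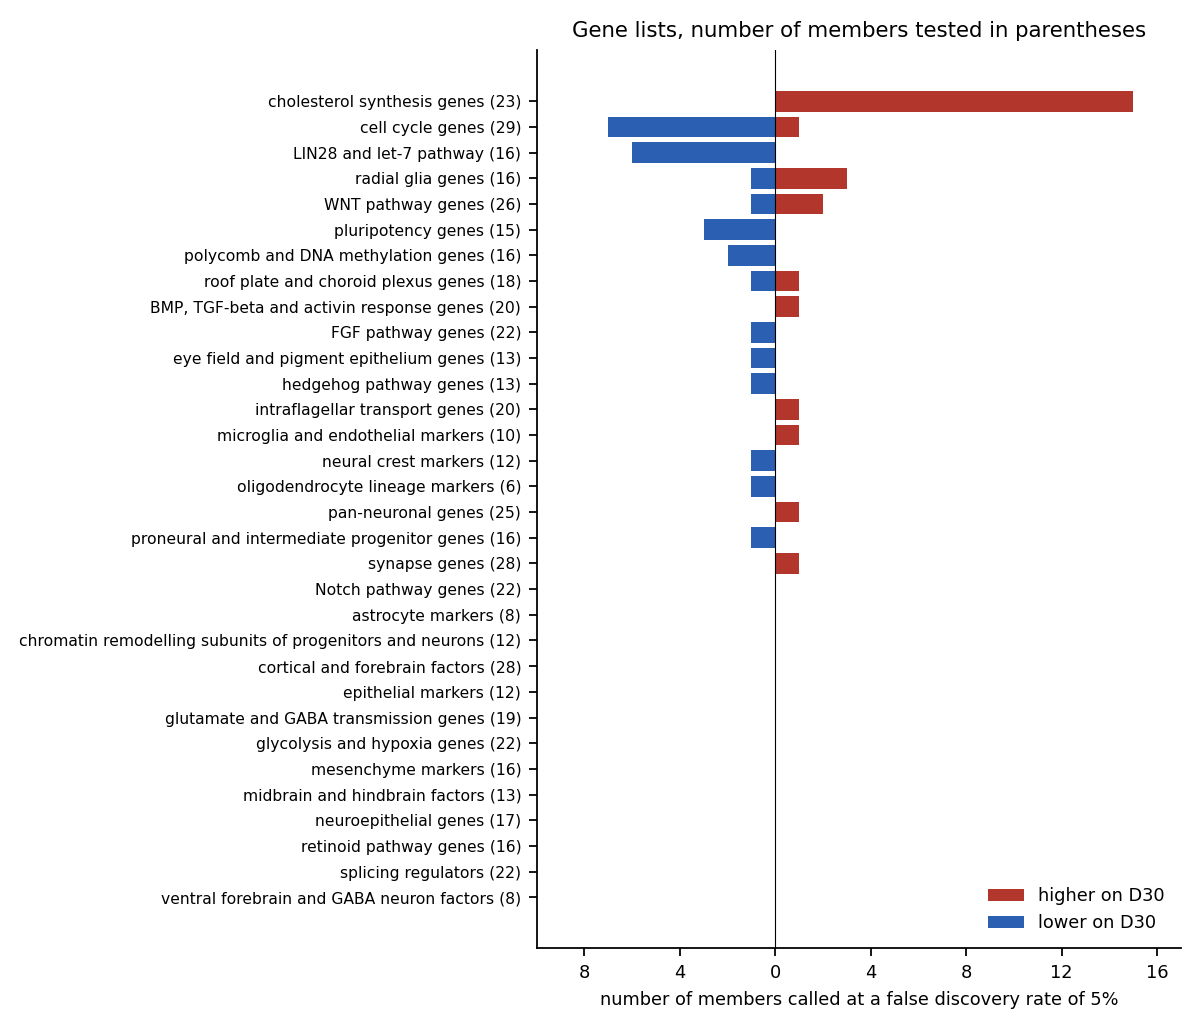
Number of members of each gene list with an adjusted p under 0.05 by edgeR, higher on D30 (red, to the right) or lower (blue, to the left), with the number tested in parentheses. Cholesterol synthesis genes lead the rises with 15 of 23, and cell cycle and LIN28 pathway genes lead the falls with 7 of 29 and 6 of 16.

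Whether the interval ran differently in cells kept in TMG was tested as the difference between the changes of the 2 arms. By edgeR 0 of 24249 genes passed, which does not show that the arms changed alike, since the same test found none of the differences put into simulated data. In the deposited data the lowest adjusted p was 0.823, and 828 genes (3.41%) had an unadjusted p below 0.05. DESeq2 called 17. Within the TMG arm itself, 124 genes (0.511%) changed from D12 to D30, of which 59 were among the 464 that rose in control cells and 23 among the 410 that fell. LIN28A had a log2 fold change of -4.81 in that arm (adjusted p = 0.0181 by edgeR), NFIB of 6.27 (adjusted p = 0.0181) and MIR99AHG of 3.20 (adjusted p = 0.02). HMGCS1, MCM4 and IFT20 had log2 fold changes of 2.04, -0.62 and 0.38 there, none of which passed (adjusted p = 0.0643, 0.548 and 0.433). OCT4 (POU5F1) rose in the TMG arm, with a log2 fold change of 4.08 (adjusted p = 0.0181 by edgeR) against -1.18 in control cells, and the difference did not pass (adjusted p = 0.823). The genes that changed were chosen on the control libraries, so these sizes do not compare the arms.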

How the data were processed

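Total RNA depleted of ribosomal RNA was sequenced from H9 cells. Per the labels and the submitters' processing notes, the authors aligned reads with bowtie2 to hg19 and estimated counts per Ensembl gene with RSEM 1.2.12. These expected counts were deposited as whole numbers, without normalization. Whether counting used strand is not given in the sources used here. The table holds 57736 genes, of which 14593 had 0 counts in every library, and 55501 were named from the GENCODE annotation of GRCh37.

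Libraries were grouped by title. Genes were kept by filterByExpr over 8 groups (minimum count 10, minimum total count 15), and edgeR 4.0.16 in R 4.3.3 fitted 1 mean per group to 16 libraries with TMM normalization and a robust quasi-likelihood fit, with 8 residual degrees of freedom. The Benjamini-Hochberg adjustment ran over all genes tested, at 5%. SE was the log2 fold change divided by the root of F. The fit was tested on simulated data, where it recovered most of the genes given a changed stage level but none of the genes given a difference between the arms. Counting intervals and floors cover counting error only. The totals of 10843196 to 19836878 counts limit the precision of genes with few counts, and the chi-square per degree of freedom between replicates was 31.3 on D12 and 25.4 on D30.

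Named genes were the 3 markers, the 15 largest rises and 15 largest falls among called genes with a symbol, no overlap between stages and a mean of at least 10 CPM in the higher stage, up to 4 called members per list with the lowest adjusted p, and members needed to say that a list did not pass; other called list members, the microRNA host genes and overlapping neighbours were named after their values were seen. The members and the 33 lists were chosen with earlier results of these data known. Of 594 list entries, 18 had no match by name in the table, among them all 13 mitochondrial mRNAs, so the mitochondrial list was not analysed here. Alternatives were RLE normalization, no filter, DESeq2 1.42.0, fits of 4 or 8 libraries, the replicate number as a block, groups from the treatment tag and each library left out. Results of some list members are not reported here.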

Additional observations from a re-analysis of the deposited data

How the results depend on the processing

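At a false discovery rate of 5%, the count of 874 genes changed between D12 and D30 became 2489 by DESeq2 on 16 libraries, 3379 by edgeR and 3369 by DESeq2 on the 4 control libraries, 1728 by edgeR on the 8 libraries of both stages, and 1505 with groups from the treatment tag. The common biological coefficient of variation was 0.236 within D12 and 0.221 within D30, against 0.379 over the 16 libraries. RLE normalization gave 874, of which 516 were higher and 358 lower on D30, against 464 and 410 with TMM. No filter gave 804 and the 2-fold condition 696. With 1 library left out the count lay between 0 and 3723. In the 16-library fit it was 5 and 0 without replicate 1 and 2 of D12, and 0 and 227 without replicate 1 and 2 of D30, with 3557, 3312, 3009 and 3968 genes at an unadjusted p under 0.05. These fits leave 1 library in an arm, which is assumed to vary like the other groups. In the 4-library fit, an alternative added after seeing the data, it was 3723, 3399, 1593 and 1753. The 15 cholesterol genes that rose became 0, 0, 0 and 9 in the 16-library fit and between 14 and 19 in the 4-library fit.

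With the replicate number as a block, the count was 1061 on 16 libraries and 3736 on 4 control libraries. The labels do not say that a number marks a shared culture, and the replicate differences of D12 and D30 correlated across genes at 0.112, from a single pair of groups.

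The 51 called genes of all lists became 123 by DESeq2 and 209 by edgeR on 4 control libraries. With 1 library left out they lay between 0 and 18 in the 16-library fit and between 141 and 239 in the 4-library fit (239, 222, 141 and 148 without replicates 1 and 2 of D12 and 1 and 2 of D30). Of the named genes 76 were called, and with 1 library left out between 0 and 26 in the 16-library fit and between 84 and 99 in the 4-library fit. The difference between the arms had 1 call without a filter and 17 by DESeq2. With groups from the treatment tag, the log2 fold change turned to 3.16 for POU5F1, 0.91 for NANOG, 0.034 for STMN2 and 0.87 for GFAP. With a library left out it ranged from -0.413 to 0.0932 for STMN2 (0.0774 without replicate 1 of D12) and from -0.141 to 0.275 for HMGA2, with -0.0282 and -0.12 for HMGA2 in the 4-library fit without replicate 2 of D12 and of D30. The cause was not tested. By edgeR on the 16 libraries grouped by title, none of these 5 genes was called.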

Other observations

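The genes that changed were mostly protein-coding. Of 16177 protein-coding genes tested, 426 rose and 332 fell (4.69% in all), against 22 and 39 of 4059 long noncoding RNAs (1.5%). Rises outnumbered falls among the protein-coding genes and falls outnumbered rises among the long noncoding RNAs, and this difference was not tested. The part of depth in the lower share was not tested.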
